A study of Homo sapiens with 13 samples.

Results

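The collagen chain genes were followed across hFOB osteoblasts grown with serum, without serum, and without serum plus a plant polyphenol. They were taken as every protein-coding gene of the count table whose symbol is COL, a number, A and a number, which gave 44 genes of 43836. Of these 44, 33 had enough reads to be tested and 11 did not. hFOB cells are a human fetal osteoblast line immortalized with a temperature-sensitive SV40 large T antigen, and all libraries came from this 1 line, so the groups describe 1 clone. PC (positive control, 2 libraries) was grown with 10% fetal bovine serum and NC (negative control, 2 libraries) was starved of serum, both with the DMSO vehicle. RES (resveratrol, a stilbene, 3 libraries), POG (peonidin-3-glucoside, an anthocyanin, 3 libraries) and DEG (2 libraries) were starved of serum and given a compound at 1 µg/ml. The labels did not spell DEG out. The comparison of PC with NC asked what serum starvation changed, and the comparisons of the compounds with NC asked what each changed in starved cells.

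Collagens are the main structural proteins of bone and other connective tissue. Their chains fold in the endoplasmic reticulum, where prolines and lysines are hydroxylated, wind around each other into a rope-like helix, and are trimmed and crosslinked outside the cell. Fibrillar types (I, II, III, V, XI, XXIV, XXVII) build fibrils, and the type I fibril is the scaffold on which osteoblasts deposit mineral. FACIT types (IX, XII, XVI, XIX) sit on fibril surfaces, type IV forms the sheets of basement membranes, type VI forms beaded filaments around cells, type VII anchors epithelium, types VIII and X form hexagonal lattices, and other types span membranes or carry heparan sulfate or chondroitin sulfate chains.

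Libraries held 38464619 to 51416358 counted reads, and mitochondrial genes took 3.03% to 3.91% of them. Levels are given in CPM, the read count of a gene divided by its library's total after TMM scaling, so that libraries of unequal depth can be compared. The squared difference per gene between 2 libraries of 1 group was set against the noise of counting. Its mean over genes was 10.9 for the PC pair and 2.07 to 2.66 for the other 8 pairs. The median over genes was 2.18 for the PC pair and 0.935 to 1.11 for the others. The 2 PC libraries thus stood further apart than other replicates, and PC values are given with and without each where it matters. Of 14 osteoblast markers, 11 passed the filter on low reads, with mean levels of 1071 CPM for SPARC, 47.8 for RUNX2, 35.9 for TNFRSF11B and 4.54 for ALPL. BGLAP and SPP1 averaged 1.25 and 1.64 CPM. Over all 12 libraries SP7, DMP1 and IBSP had 53, 11 and 1 reads. Several defining markers of other cell types were at or near 0, with 16 reads for CDH5 and 2 for EMCN (endothelial), 23 for PTPRC and 0 for CD3E and TYROBP (haematopoietic), 1 for ADIPOQ (adipocyte) and 0 for CNMD (chondrocyte), and EPCAM and CDH1 (epithelial) had 185 and 56. Other genes of the same lists were expressed, with means of 43.9 CPM for TEK and 9.62 for TIE1 (endothelial), 220.1 for KRT8 and 185 for KRT18 (epithelial), 24.9 for MATN3 (chondrocyte) and 10.1 for PPARG (adipocyte). Of the 9 endothelial markers 7 were tested, and 4 were higher and 1 lower with serum, 2 and 0 with RES, 1 and 3 with POG and 1 and 2 with DEG. They summed to 81.0 to 87.7 CPM in PC, 57.2 to 58.5 in NC, 72.5 to 79.3 in RES, 49.4 to 52.8 in POG and 52.6 to 52.9 in DEG. Of the 8 epithelial markers 5 were tested, with 2 higher and 0 lower in PC, 3 and 0 in RES, 0 and 2 in POG and 0 and 1 in DEG, and they summed to 467 to 509 CPM in PC, 399.9 to 408 in NC, 447 to 458 in RES, 340.2 to 349.7 in POG and 366 to 371 in DEG. Of the 10 cycling markers 6 were higher and 1 lower with serum, 0 and 3 with RES, 3 and 0 with POG and 2 and 0 with DEG, and they summed to 3039 to 3173 CPM in PC, 2956 to 2957 in NC, 2782 to 2836 in RES, 3110 to 3152 in POG and 3080.1 to 3081 in DEG. Among all 17092 tested genes, 21.4% were higher and 20.9% lower with serum, and 4.94% and 6.21% with RES. With POG the shares were 5.93% and 8.57%, and with DEG 3.52% and 6.11%. The part of these markers in the results was not tested.

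Type VI, type I and type IV chains were the most abundant collagen transcripts. Per kilobase of transcript, COL6A1 had a mean of 847 CPM over the 12 libraries and COL6A2 830.0. COL1A1, the main chain of type I collagen, followed at 452, and COL4A2 at 412, COL4A1 at 243, COL3A1 at 222, COL1A2 at 205 and COL6A3 at 183 CPM per kilobase. COL5A2, COL5A1, COL7A1, COL16A1, COL8A1 and COL18A1 lay between 146 and 30.8. The cartilage chains COL2A1, COL11A1 and COL11A2 were far lower, between 0.172 and 0.426 CPM per kilobase, and COL25A1 was lowest of the 33 at 0.0458. Some neighbours in this order did not separate. The COL6A1 to COL6A2 ratio per kilobase ran from 0.971 to 1.06 between libraries, and COL4A5 and COL8A2 both lay at 13.9. With the union of all exons as the gene length, COL3A1 moved from place 6 to 4 and COL4A1 from 5 to 8, while the first 3 places stayed as they were.

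**Figure D1:**
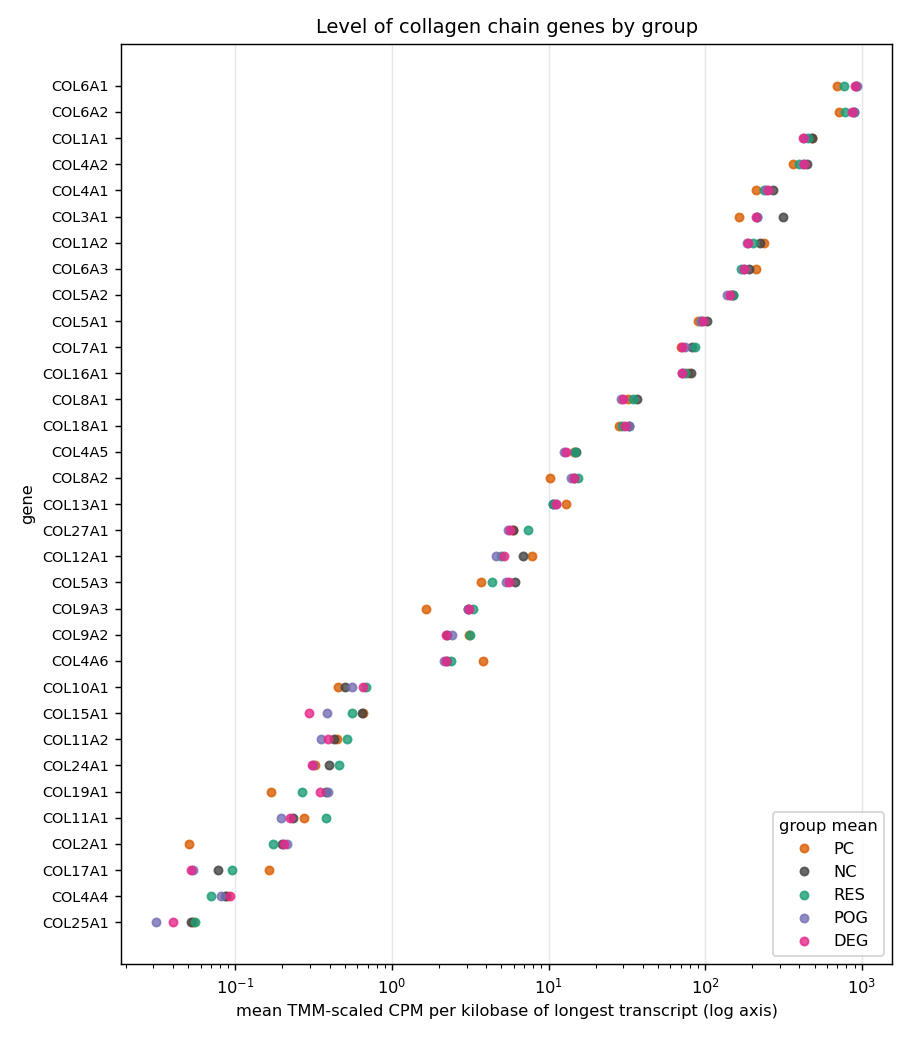
Level of the 33 tested collagen chain genes, 1 row per gene, as mean TMM-scaled CPM per kilobase of longest transcript on a log axis; each point is the mean of 1 group. The order spans from 847 CPM per kilobase for COL6A1 to 0.0458 for COL25A1, and for most genes the 5 group means lie close together beside the distance between genes.

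Collagen took the largest share of reads in the NC libraries. The 44 genes together took 2.34% ± 0.00387 of the counted reads in NC (SD, n = 2), 1.94% ± 0.0368 in PC, 2.10% ± 0.0264 in RES, 2.18% ± 0.0248 in POG and 2.15% ± 0.00284 in DEG (SD; n = 2 for PC and DEG, n = 3 for RES and POG). No library of another group reached the lowest NC library, which was at 2.33%; the highest of the others was a POG library at 2.21%. In bulk RNA, fewer cells making a transcript and less of it per cell cannot be told apart. The fibrillar chains took 0.786% ± 0.00655 of reads in NC, 0.678% ± 0.0125 in PC, 0.711% ± 0.00926 in RES, 0.672% ± 0.00443 in POG and 0.669% ± 0.00230 in DEG. The beaded filament chains, nearly all type VI, took 0.891% ± 0.00119 in NC, 0.735% ± 0.0106 in PC, 0.779% ± 0.0105 in RES, 0.898% ± 0.0122 in POG and 0.869% ± 0.000916 in DEG (SD over the same libraries). The fibrillar share was thus lower than in NC in each of the 4 other groups, whereas the type VI share was lowest in PC and RES and closer to NC in POG and DEG; shares were not tested. The 11 most abundant chains held 94.5% of all collagen reads.

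Among called collagen genes, falls outnumbered rises in each comparison with NC. A gene was called when the exact test of edgeR gave a false discovery rate (FDR, the Benjamini-Hochberg adjusted p over 17092 genes) under 0.05. With serum, 20 of the 33 genes were called, 6 higher and 14 lower than NC, against 42.4% of all tested genes called (21.4% higher, 20.9% lower). With RES, 15 were called, 3 higher and 12 lower, against 11.2% (4.94% higher, 6.21% lower). With POG, 14 were called and all 14 were lower, against 14.5% (5.93% higher, 8.57% lower). With DEG, 9 were called and all 9 were lower, against 9.63% (3.52% higher, 6.11% lower). These 4 comparisons share the 2 NC libraries, so their directions are not independent of each other. The median log2 fold change over the 33 genes was -0.07 for PC, -0.07 for RES, -0.12 for POG and -0.10 for DEG, beside -0.00586, 0.00112, 0.00233 and 0.00083 over all tested genes.

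Most collagen falls were small. No member moved by 1 or more on the log2 scale with RES or POG, 1 did with DEG (COL15A1) and 3 did with serum (COL2A1, COL19A1 and COL17A1). Counts of highly expressed genes are more precise and are called more often, so a second background was taken from genes averaging 100 CPM or more, a limit chosen after the values were seen. Of the 14 members over that limit, 10 were called with serum (9 lower) beside 69.1% of all 2592 such genes, 10 with RES (10 lower) beside 21.6%, 10 with POG (10 lower) beside 26.6% and 6 with DEG (6 lower) beside 19.3%. These background shares count calls in either direction, and no share of lower calls was taken at this level. For serum the members' share of calls was near that of other abundant genes.

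**Figure D2:**
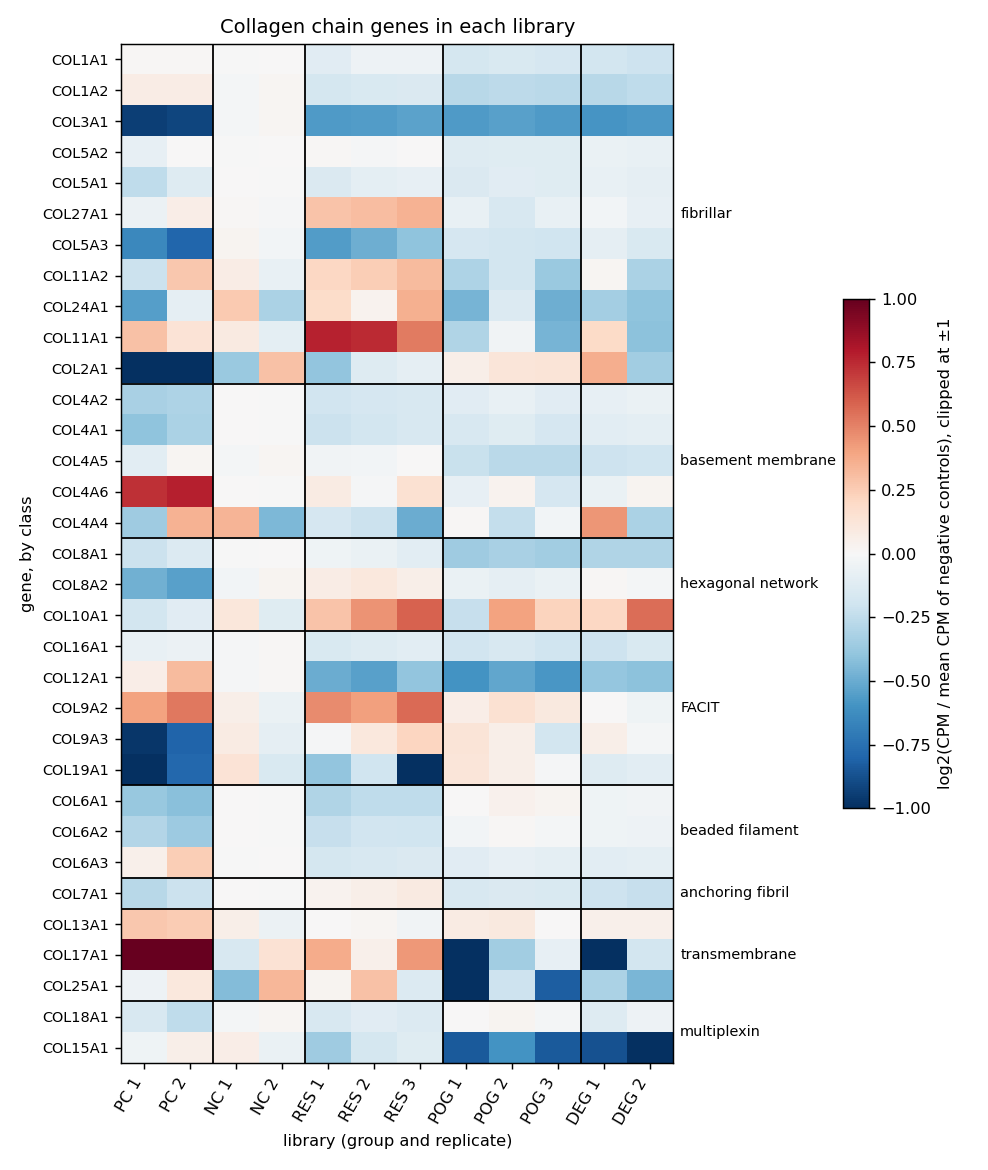
Each of the 33 tested collagen chain genes (rows, by class) in each of the 12 libraries (columns), coloured by log2 of its CPM over the mean CPM of the 2 NC libraries, clipped at ±1. COL3A1 is blue in all 10 libraries outside NC, COL12A1 is blue only in the compound libraries, and COL27A1 and COL11A1 are red in the 3 RES libraries.

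COL3A1 fell in each of the 4 comparisons with NC. It encodes the chain of type III collagen, which forms thin fibrils mixed with type I in extensible tissue and early matrix, and lies at chr2:188974373-189012746 (hg38, GENCODE release 44). COL3A1 stood at 1698 and 1753 CPM in NC, 896 and 914 CPM in PC, 1165, 1173 and 1192 CPM in RES, 1167, 1187 and 1165 CPM in POG and 1147 and 1159.7 CPM in DEG. Every library outside NC lay below both NC libraries, PC libraries were lowest, and the 8 compound libraries spanned only 1147 to 1192. The log2 fold change against NC was -0.93 (SE 0.0262, FDR 2.81e-161) for PC, -0.55 (SE 0.0234, FDR 2.12e-69) for RES, -0.56 (SE 0.0234, FDR 7.17e-71) for POG and -0.58 (SE 0.0260, FDR 3.52e-62) for DEG. On the linear scale serum left 0.525 of the NC level and the compounds left 0.668 to 0.682. The compounds did not separate on this gene, with a POG minus RES log2 difference of -0.00409 (95% interval -0.05 to 0.04, FDR 0.951) and a DEG minus RES difference of -0.03 (95% interval -0.08 to 0.02, FDR 0.578). The ratio of COL3A1 to COL1A1, per kilobase, was 0.654 ± 0.0121 in NC, 0.341 ± 0.00557 in PC, 0.469 ± 0.00763 in RES, 0.499 ± 0.00247 in POG and 0.500 ± 0.0100 in DEG (SD; n = 2 for NC, PC and DEG, n = 3 for RES and POG).

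Both type I chains fell with POG and DEG, COL1A2 also fell with RES, and with serum the main test called neither. Type I collagen pairs chains of COL1A1 (chr17:50184101-50201632) with a chain of COL1A2 (chr7:94394895-94431227) and is the bulk of bone matrix. COL1A1 stood at 2835 and 2852 CPM in NC, 2868 and 2859 CPM in PC, 2636, 2741 and 2740.4 CPM in RES, 2515, 2555 and 2531 CPM in POG and 2505 and 2463 CPM in DEG. PC and NC libraries lay within 2835 to 2868, the RES libraries below them, and the POG and DEG libraries lower still, with no overlap between RES and either. COL1A1 changed against NC by 0.01 (95% interval -0.04 to 0.06, FDR 0.856) on the log2 scale for PC and -0.07 (95% interval -0.12 to -0.03, FDR 0.115) for RES, neither called, and fell by 0.17 (SE 0.0216, FDR 1.81e-06) for POG and 0.20 (SE 0.0237, FDR 4.33e-07) for DEG. The quasi-likelihood test called the RES value as well (FDR 0.0305), as did DESeq2 (FDR 0.0294). COL1A2 stood at 1329.7 and 1363 CPM in NC, 1420.0 and 1416 CPM in PC, 1191, 1213 and 1217 CPM in RES, 1112, 1120.0 and 1117 CPM in POG and 1112 and 1129.6 CPM in DEG. COL1A2 was highest in PC and fell in steps from NC to RES to the other compounds, with no overlap between NC and any compound group. Its log2 fold change was -0.16 (SE 0.0229, FDR 9.58e-06) for RES, -0.27 (SE 0.0228, FDR 3.96e-17) for POG and -0.26 (SE 0.0252, FDR 2.93e-13) for DEG, and 0.08 (SE 0.0251, FDR 0.0532) for PC, not called. For PC the quasi-likelihood test called COL1A2 higher (FDR 0.0164), as did DESeq2 (FDR 0.00851), DESeq2 size factors (FDR 0.0491) and the filter at 1 CPM (FDR 0.0300). The exact test did not call it with plain library totals (0.03, FDR 0.461), with no filter on low counts (FDR 0.181) or with dispersions from PC and NC alone (FDR 0.377). The value was 0.08 and 0.09 without PC replicate 1 or 2, and 0.06 and 0.10 without NC replicate 1 or 2. The COL1A1 to COL1A2 ratio per kilobase stayed between 2.05 and 2.31 in all 12 libraries, with the PC libraries lowest.

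**Figure D3:**
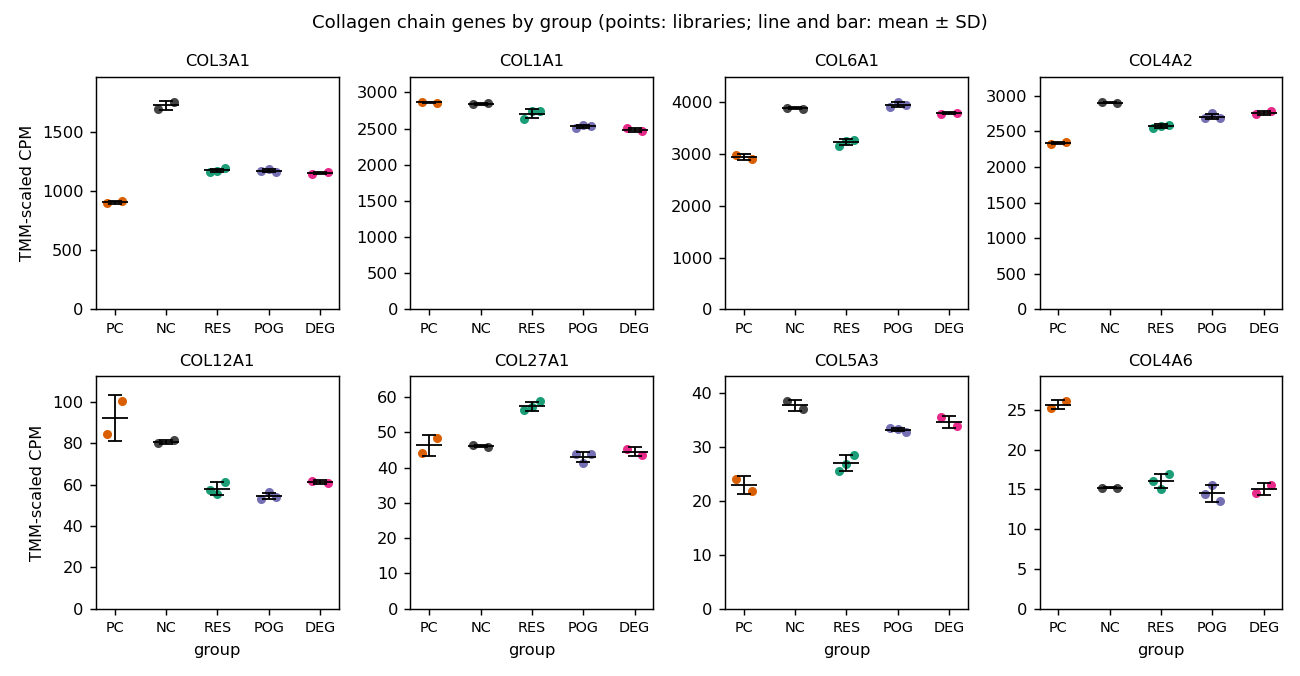
TMM-scaled CPM (vertical axes, from 0) of 8 collagen chain genes in the 5 groups; points are libraries, and the line and bar are the mean ± SD (n = 2 for PC, NC and DEG, n = 3 for RES and POG). COL3A1 is lower than NC in every other group, COL6A1 is lowest in PC and RES, COL27A1 is higher in RES only, and COL4A6 is higher in PC only.

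Among the type V chains, which sit inside type I fibrils and limit their width, COL5A3 had the largest falls. COL5A3 stood at 38.4 and 36.9 CPM in NC, 24.1 and 21.8 CPM in PC, 25.6, 26.8 and 28.5 CPM in RES, 33.5, 33.3 and 32.8 CPM in POG and 35.5 and 33.8 CPM in DEG. The PC libraries were lowest, RES came next, and the POG and DEG libraries lay between RES and NC without reaching the NC range. COL5A3 fell by 0.71 (SE 0.0621, FDR 2.67e-28) on the log2 scale with serum and by 0.48 (SE 0.0555, FDR 5.22e-15) with RES, and by less with POG, 0.18 (SE 0.0546, FDR 0.0106), a call lost without NC replicate 1 (FDR 0.203). For DEG the value was -0.12 (SE 0.0605, FDR 0.238), not called. POG exceeded RES by 0.30 (SE 0.0499, FDR 9e-08) and DEG exceeded RES by 0.36 (SE 0.0561, FDR 1.45e-08). An antisense long noncoding gene shares 270 exonic bases with COL5A3, and without a stated strand setting their reads cannot be told apart. The same limit holds for shorter antisense overlaps of COL16A1 (117 bases), COL4A2 (81 and 14 bases), COL1A1 (59 bases) and COL5A1 (54 bases). COL5A1 went from 863 ± 4.34 CPM in NC (SD, n = 2) to 758 ± 45.6 CPM in PC (SD, n = 2), a log2 fold change of -0.19 that became -0.12 without PC replicate 1, and it was called lower with RES, at -0.11 (SE 0.0289, FDR 0.0214), and with POG, at -0.12 (SE 0.0289, FDR 0.00503). Without NC replicate 1 or NC replicate 2 the RES call was lost, as was the POG call. The RES call was also lost without RES replicate 1 or 2 (FDR 0.144 and 0.0512), with plain library totals (FDR 0.122) and with no filter on low counts (FDR 0.0588). COL5A2, the neighbour of COL3A1 on chromosome 2, stood at 1033 ± 1.44 CPM in NC (SD, n = 2) and 948 ± 1.04 CPM in POG (SD, n = 3), a log2 fold change of -0.12 (FDR 0.00163, and 0.0545 without NC replicate 2). It was not called with PC, RES or DEG, at -0.04, 0.00323 (95% interval -0.05 to 0.05, FDR 0.988) and -0.07, although without PC replicate 2 it was called lower in PC (FDR 0.00842).

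COL5A3 lies at chr19:9959561-10010504 on the minus strand. Its upstream sequence is shown because COL5A3 was the type V gene with the largest falls; it is the 250 bases before the RefSeq start (GRCh38.p14, chr19:10010505-10010754, minus strand), 5′ to 3′, with capitals marking CCAAT and GGGCGG.
COL5A3 upstream: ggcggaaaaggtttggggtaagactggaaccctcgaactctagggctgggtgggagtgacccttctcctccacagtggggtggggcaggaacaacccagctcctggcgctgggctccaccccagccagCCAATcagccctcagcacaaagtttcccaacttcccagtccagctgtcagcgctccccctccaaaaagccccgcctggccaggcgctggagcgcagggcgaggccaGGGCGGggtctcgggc
CCAAT is the letter sequence that the NF-Y factor binds, GGGCGG is the core letter sequence of Sp1 sites, and TATAAA is the TATA box. Each was searched on both strands (as ATTGG for the first, CCGCCC for the second and TTTATA for the third in reverse), and no 2 of them overlapped in the sequences shown. RefSeq upstream windows matched 32 of the 44 genes by symbol. Some genes have several starts, so these 32 had 44 windows. CCAAT was found in 12 of the 44 windows (27.3%), GGGCGG in 24 (54.5%) and TATAAA in 8 (18.2%), beside 32.0%, 42.6% and 10.7% of 35116 windows of the same length over all genes. COL5A3 held the first and second of these motifs and not TATAAA. A match is a description of letters and no evidence of binding.

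RES raised some of the minor fibrillar chains that the other compounds left near NC. COL27A1 encodes type XXVII collagen, known from cartilage, and lies at chr9:114155537-114312511. COL27A1 stood at 46.4 and 45.8 CPM in NC, 44.2 and 48.3 CPM in PC, 56.2, 57.2 and 58.8 CPM in RES, 43.7, 41.2 and 43.9 CPM in POG and 45.3 and 43.6 CPM in DEG. The 3 RES libraries lay above all 9 others. The log2 rise with RES was 0.32 (SE 0.0473, FDR 1.14e-08), and POG and DEG lay below RES by 0.42 (SE 0.0417, FDR 3.06e-20) and 0.37 (SE 0.0475, FDR 4.67e-12). COL11A1 stood at 1.83 and 1.61 CPM in NC, 2.10 and 1.90 CPM in PC, 2.94, 2.88 and 2.47 CPM in RES, 1.40, 1.68 and 1.25 CPM in POG and 1.96 and 1.30 CPM in DEG. COL11A1, a chain of the type XI collagen that nucleates cartilage fibrils, was highest in the RES libraries, which lay above all others, but it rested on 51 to 131 reads per library. Its rise with RES was 0.68 (SE 0.201, FDR 0.00831), lost without NC replicate 1 (FDR 0.0545) or NC replicate 2 (FDR 0.180). POG lay below RES by 0.94 (SE 0.178, FDR 9.27e-07), and DEG by 0.76 (SE 0.203, FDR 0.00137), the latter becoming -0.49 and uncalled (FDR 0.171) without DEG replicate 2.

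The remaining fibrillar chains were scarce. COL11A2 stood at 2.89 and 2.61 CPM in NC, 2.37 and 3.32 CPM in PC, 3.18, 3.26 and 3.43 CPM in RES, 2.22, 2.43 and 2.13 CPM in POG and 2.79 and 2.21 CPM in DEG. COL11A2, another type XI chain, was called only between POG and RES, at -0.54 (SE 0.147, FDR 0.00133), where the 3 RES libraries lay above the 3 POG libraries. COL24A1 stood at 3.25 and 2.19 CPM in NC, 1.86 and 2.56 CPM in PC, 3.09, 2.79 and 3.48 CPM in RES, 1.97, 2.47 and 1.94 CPM in POG and 2.14 and 2.06 CPM in DEG. COL24A1, whose type XXIV collagen is known from developing bone, had NC libraries that overlapped PC, RES and POG and lay just above DEG, with no call against NC. It was lower than RES in POG by 0.55 (SE 0.165, FDR 0.00491) and in DEG by 0.57 (SE 0.192, FDR 0.0188). The first was lost without RES replicate 3 (FDR 0.0520) and the second without RES replicate 3, DEG replicate 1 or DEG replicate 2 (FDR 0.100, 0.118 and 0.160). COL2A1 stood at 0.775 and 1.23 CPM in NC, 0.182 and 0.332 CPM in PC, 0.762, 0.916 and 0.942 CPM in RES, 1.04, 1.09 and 1.10 CPM in POG and 1.29 and 0.788 CPM in DEG. COL2A1, the chain of the main cartilage collagen, was lower in both PC libraries than in any other, on 9 to 51 reads per library, with a log2 fold change of -1.98 (SE 0.404, FDR 2.86e-06) with serum and no call with a compound. The 10 chondrocyte markers, COL2A1 among them, summed to 37.9 to 41.0 CPM in PC, 29.8 to 34.3 in NC, 41.5 to 44.9 in RES, 35.5 to 37.3 in POG and 36.0 to 37.0 in DEG, with CNMD at 0 reads and ACAN at 129 over all libraries. Of the 8 tested, 3 were higher and 1 lower with serum, 2 and 0 with RES, 2 and 1 with POG and 1 and 0 with DEG. Among all tested genes 21.4% were higher and 20.9% lower with serum, and 4.94% and 6.21% with RES. With POG the shares were 5.93% and 8.57%, and with DEG 3.52% and 6.11%. The part of these markers in the values was not tested.

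COL12A1, a FACIT chain that bridges type I fibrils, fell with each compound and was called higher with serum on the strength of 1 library. It lies at chr6:75084326-75206267. COL12A1 stood at 80.1 and 81.3 CPM in NC, 84.4 and 100.2 CPM in PC, 57.3, 55.3 and 61.4 CPM in RES, 53.2, 56.2 and 54.0 CPM in POG and 61.8 and 60.7 CPM in DEG. All 8 compound libraries lay below all 4 control libraries. The log2 fold change against NC was -0.48 (SE 0.0528, FDR 1.64e-15) for RES, -0.57 (SE 0.0529, FDR 1.82e-22) for POG and -0.40 (SE 0.0586, FDR 7.6e-09) for DEG. With serum it was 0.19 (SE 0.0565, FDR 0.00387), but this rested on PC replicate 2, since without it the value was 0.07 (FDR 0.235) and without PC replicate 1 it was 0.32. The serum call was also lost without NC replicate 1, and with dispersions from PC and NC alone (exact test, FDR 0.0506). DEG minus POG was 0.17 (95% interval 0.06 to 0.28, FDR 0.123), with an unadjusted p of 0.00251, the lowest of the 33 genes in that comparison.

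COL16A1, another FACIT chain, shared the direction of COL12A1 under the compounds at a smaller size. It stood at 439.7 ± 4.40 CPM in NC (SD, n = 2), 402 ± 6.92 CPM in RES (SD, n = 3), 388 ± 5.05 CPM in POG (SD, n = 3) and 389 ± 9.60 CPM in DEG (SD, n = 2), log2 fold changes of -0.13, -0.18 and -0.18, and the RES call was lost without NC replicate 2 (FDR 0.0956). With serum COL16A1 was at -0.07 (SE 0.0302, FDR 0.117), not called.

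The type IX chains, FACIT partners of cartilage fibrils, moved in opposite directions with serum. COL9A2 stood at 6.74 and 6.18 CPM in NC, 8.52 and 9.29 CPM in PC, 8.95, 8.58 and 9.58 CPM in RES, 6.77, 7.16 and 6.93 CPM in POG and 6.48 and 6.28 CPM in DEG. Both PC and all RES libraries lay above the other 7 for COL9A2. Its log2 fold change was 0.46 (SE 0.105, FDR 7.6e-05) with serum and 0.48 (SE 0.0969, FDR 4.24e-05) with RES, and POG and DEG lay below RES by 0.38 (SE 0.0832, FDR 7.21e-05) and 0.50 (SE 0.0972, FDR 8.63e-06). COL9A3 stood at 8.06 and 7.14 CPM in NC, 3.86 and 4.36 CPM in PC, 7.53, 8.18 and 8.84 CPM in RES, 8.30, 7.91 and 6.69 CPM in POG and 7.93 and 7.48 CPM in DEG. Both PC libraries lay below all others for COL9A3, a log2 fold change of -0.89 (SE 0.128, FDR 5e-11), and no compound was called; the gene shares 155 exonic bases with TCFL5 on the opposite strand. COL19A1 stood at 3.64 and 2.97 CPM in NC, 1.05 and 1.92 CPM in PC, 2.51, 2.88 and 1.59 CPM in RES, 3.59, 3.45 and 3.27 CPM in POG and 3.02 and 3.08 CPM in DEG. COL19A1, the chain of type XIX collagen, was -1.17 (SE 0.237, FDR 3.39e-06) with serum, and -0.78 without PC replicate 1, which held the lowest level. POG exceeded RES by 0.56 (SE 0.177, FDR 0.00811), but without RES replicate 3, its lowest library, the value was 0.35 (FDR 0.129). Against NC, RES was not called, except lower without RES replicate 2 (FDR 0.0231) or with dispersions from RES and NC alone (FDR 0.0291). COL19A1 shares 85 exonic bases with LMBRD1 on the opposite strand.

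The basement membrane chains COL4A1 and COL4A2 fell together with serum, RES and POG, and with DEG their fall was called by some tests only. COL4A1 stood at 1777 and 1767 CPM in NC, 1341 and 1426 CPM in PC, 1527, 1558 and 1583 CPM in RES, 1585, 1631 and 1581 CPM in POG and 1650.1 and 1657 CPM in DEG. COL4A2 stood at 2912 and 2897 CPM in NC, 2323 and 2347 CPM in PC, 2544, 2579 and 2597 CPM in RES, 2682, 2752 and 2686 CPM in POG and 2744 and 2781 CPM in DEG. For both genes the NC libraries were highest and the PC libraries lowest, and no compound library reached NC. Against NC, COL4A1 changed by -0.36 (SE 0.0277, FDR 1.72e-21) on the log2 scale with serum, -0.19 (SE 0.0251, FDR 8.21e-07) with RES and -0.15 (SE 0.0251, FDR 0.000154) with POG, and by -0.10 (SE 0.0276, FDR 0.0577) with DEG, not called. COL4A2 changed by -0.31 (SE 0.0230, FDR 2.42e-20) with serum, -0.17 (SE 0.0209, FDR 3.79e-07) with RES and -0.10 (SE 0.0209, FDR 0.00770) with POG, and by -0.07 (SE 0.0230, FDR 0.167) with DEG, not called. With DEG, COL4A1 was called by the quasi-likelihood test (FDR 0.0202), DESeq2 (FDR 0.0262) and with the filter at 1 CPM (FDR 0.0458), and COL4A2 by the quasi-likelihood test (FDR 0.0458) and DESeq2 (FDR 0.0469). The POG call on COL4A2 was lost without NC replicate 1 or 2, and without POG replicate 1 or 3 (FDR 0.0576 and 0.0566). With plain library totals (FDR 0.0554) or no filter on low counts (FDR 0.0753) that call was lost as well. The COL4A2 to COL4A1 ratio per kilobase stayed between 1.66 and 1.76 in all 12 libraries.

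The type IV genes lie in head-to-head pairs that are read in opposite directions from a shared stretch of DNA. In RefSeq the starts of COL4A1 and COL4A2 on chromosome 13 are 127 bases apart, those of COL4A6 and COL4A5 on the X chromosome 380 bases (to the nearer of 2 COL4A6 starts) and those of COL4A4 and COL4A3 on chromosome 2 419 bases. The 100 bases next to the COL4A1 start (GRCh38.p14, chr13:110307158-110307257, plus strand, in the reading direction of COL4A2) and the 250 bases before the COL4A5 start (chrX:108439588-108439837, plus strand) are shown because these pairs behaved differently. Capitals mark CCAAT or its reverse ATTGG, and also GGGCGG.
between the COL4A1 and COL4A2 starts: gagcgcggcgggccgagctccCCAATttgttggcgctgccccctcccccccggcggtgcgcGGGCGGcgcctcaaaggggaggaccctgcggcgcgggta
COL4A5 upstream: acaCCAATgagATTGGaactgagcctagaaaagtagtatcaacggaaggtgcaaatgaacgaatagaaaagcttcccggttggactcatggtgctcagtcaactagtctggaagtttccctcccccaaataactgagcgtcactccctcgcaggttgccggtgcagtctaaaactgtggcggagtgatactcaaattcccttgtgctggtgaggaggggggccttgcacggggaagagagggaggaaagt
The COL4A1 and COL4A2 stretch held CCAAT and GGGCGG, and the COL4A5 stretch held CCAAT on both strands. COL4A6, whose 2 windows are not shown, held both CCAAT and GGGCGG among them. The stretches shown differ in length and do not set the pairs apart by motif. Any part of these motifs in how the pairs behaved was not tested.

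Serum raised COL4A6 and not its partner COL4A5. COL4A6 stood at 15.2 and 15.2 CPM in NC, 25.2 and 26.1 CPM in PC, 16.1, 15.1 and 16.9 CPM in RES, 14.4, 15.6 and 13.5 CPM in POG and 14.5 and 15.5 CPM in DEG. COL4A5 stood at 96.6 and 98.8 CPM in NC, 90.8 and 98.9 CPM in PC, 95.2, 96.1 and 98.1 CPM in RES, 83.8, 81.1 and 81.2 CPM in POG and 84.7 and 85.2 CPM in DEG. COL4A5 is shown by library as the partner of COL4A6, a choice made after its values were seen. For COL4A6 both PC libraries lay above all 10 others, which spanned 13.5 to 16.9, whereas for COL4A5 the PC and NC ranges overlapped and the POG and DEG libraries were lowest. COL4A6 rose by 0.75 (SE 0.0766, FDR 3.39e-21) on the log2 scale with serum and was not called with a compound, with values from -0.07 for POG to 0.07 for RES. POG minus RES, -0.15, was called without RES replicate 2 or POG replicate 2 (FDR 0.0441 and 0.0287), and not otherwise. COL4A5 was -0.04 (95% interval -0.13 to 0.04, FDR 0.483) with serum and -0.02 with RES, neither called, and fell by 0.25 (SE 0.0388, FDR 7.16e-08) with POG and 0.20 (SE 0.0430, FDR 0.000411) with DEG. The COL4A5 to COL4A6 ratio per kilobase was 3.72 and 3.92 in PC and 5.38 to 6.71 in the other libraries. In the remaining pair COL4A4 lay at 0.606 to 1.16 CPM with no call, and COL4A3 was below the filter with 27 reads in all.

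**Figure D4:**
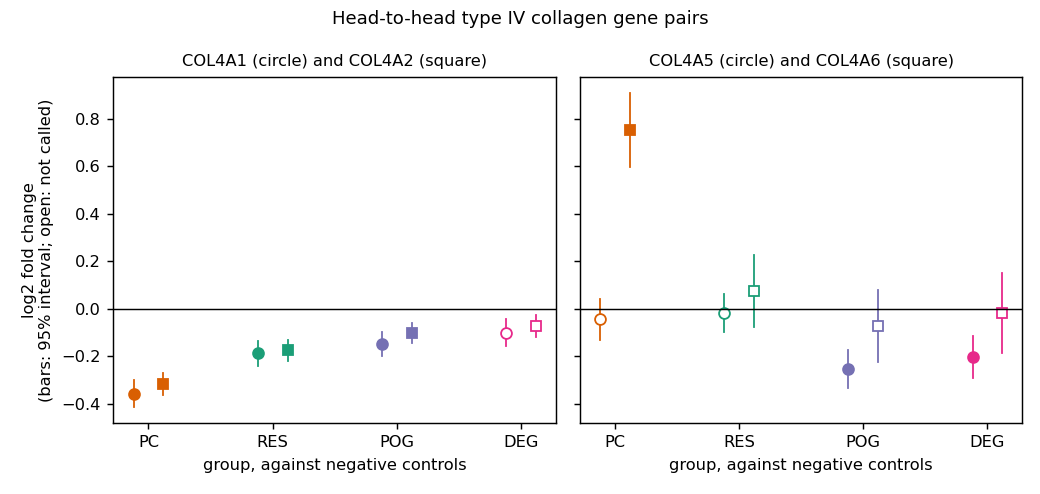
Log2 fold change against NC (vertical axis) of the 2 head-to-head type IV gene pairs in PC, RES, POG and DEG; bars are 95% intervals of the quasi-likelihood fit and open symbols are not called by the exact test. COL4A1 and COL4A2 lie side by side in each group, at -0.36 and -0.31 with serum, whereas COL4A6 is at 0.75 and COL4A5 at -0.04 with serum.

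The type VI chains COL6A1 and COL6A2 separated RES from the other compounds. Its filaments are built of COL6A1, COL6A2 and COL6A3 chains and link cells to the surrounding matrix, and COL6A1 and COL6A2 are neighbours on chromosome 21, at chr21:45981770-46005050 and chr21:46098112-46132848. COL6A1 stood at 3892 and 3866 CPM in NC, 2982 and 2898 CPM in PC, 3152, 3253 and 3259 CPM in RES, 3898, 3999 and 3945 CPM in POG and 3775 and 3796 CPM in DEG. COL6A2 stood at 3091 and 3085 CPM in NC, 2518 and 2404 CPM in PC, 2636, 2708 and 2696 CPM in RES, 3028, 3121 and 3051 CPM in POG and 2994 and 2979 CPM in DEG. For both genes PC and RES libraries lay below all NC, POG and DEG libraries. COL6A1 fell by 0.40 (SE 0.0233, FDR 1.09e-30) on the log2 scale with serum and by 0.27 (SE 0.0211, FDR 6.19e-16) with RES, and the values for POG and DEG were 0.03 (95% interval -0.02 to 0.07, FDR 0.688) and -0.04 (95% interval -0.08 to 0.01, FDR 0.626). COL6A2 fell by 0.33 (SE 0.0246, FDR 5.96e-20) with serum and by 0.20 (SE 0.0223, FDR 7.86e-09) with RES, with -0.01 (95% interval -0.06 to 0.04, FDR 0.913) for POG and -0.05 (95% interval -0.10 to 0.00213, FDR 0.464) for DEG. Compared directly, POG exceeded RES by 0.29 (SE 0.0190, FDR 2.01e-24) for COL6A1 and 0.19 (SE 0.0201, FDR 1.59e-10) for COL6A2, and DEG exceeded RES by 0.23 (SE 0.0211, FDR 2.25e-12) and 0.16 (SE 0.0224, FDR 1.36e-05).

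COL6A3, the long type VI chain on chromosome 2 (chr2:237324003-237414328), did not follow the other type VI chains with serum. COL6A3 stood at 1986 and 2007 CPM in NC, 2069.7 and 2370.4 CPM in PC, 1772, 1787 and 1804 CPM in RES, 1849, 1890.4 and 1863 CPM in POG and 1857 and 1862 CPM in DEG. The PC libraries were highest and far apart, the RES libraries lowest, and POG and DEG lay between RES and NC. The log2 fold change with serum was 0.15 (SE 0.0347, FDR 0.00140), 0.25 without PC replicate 1 and 0.06 without PC replicate 2, and with dispersions from PC and NC alone the call was lost (FDR 0.0822). With RES it was -0.16 (SE 0.0316, FDR 0.00121), lost without NC replicate 2 (FDR 0.0618), and with POG and DEG it was -0.10 (SE 0.0316, FDR 0.0801) and -0.10 (SE 0.0347, FDR 0.123), not called. The COL6A3 to COL6A2 ratio per kilobase was 0.269 and 0.323 in PC and 0.198 to 0.220 in the other libraries. The 250 bases before the RefSeq start of COL6A2 (GRCh38.p14, chr21:46097862-46098111, plus strand) are shown as those of the most abundant member with a window in the table, with capitals marking GGGCGG or its reverse CCGCCC, and also TATAAA.
COL6A2 upstream: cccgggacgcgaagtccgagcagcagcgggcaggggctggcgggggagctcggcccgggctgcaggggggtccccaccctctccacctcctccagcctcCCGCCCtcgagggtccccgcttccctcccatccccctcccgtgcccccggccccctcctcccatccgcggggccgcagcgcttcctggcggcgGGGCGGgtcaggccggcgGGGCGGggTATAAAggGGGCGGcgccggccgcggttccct
This stretch held 3 copies of GGGCGG and a TATAAA next to the start, and a CCGCCC further upstream.

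Chains of the smaller classes mostly fell where they were called. COL7A1 encodes the anchoring fibril collagen of the skin. It stood at 769 ± 5.02 CPM in NC (SD, n = 2), 648 ± 19.7 CPM in PC (SD, n = 2), 803 ± 15.6 CPM in RES (SD, n = 3), 693 ± 3.90 CPM in POG (SD, n = 3) and 659 ± 7.89 CPM in DEG (SD, n = 2), log2 fold changes of -0.25 for PC, -0.15 for POG and -0.22 for DEG, all called, and 0.06 for RES, not called. COL8A1 stood at 207 and 209 CPM in NC, 179.6 and 189.8 CPM in PC, 202, 199 and 194 CPM in RES, 163, 166 and 164 CPM in POG and 169 and 169 CPM in DEG. COL8A1, a chain of the short-chain network collagen VIII, was lowest in POG and DEG, whose libraries lay below all others. Its log2 fold change was -0.34 (SE 0.0320, FDR 2e-19) for POG, -0.30 (SE 0.0354, FDR 4.98e-12) for DEG and -0.18 (SE 0.0351, FDR 3.88e-05) for PC, and -0.07 for RES, not called. COL8A2 stood at 66.9 and 69.6 CPM in NC, 48.9 and 46.8 CPM in PC, 71.8, 73.5 and 71.0 CPM in RES, 65.1, 64.3 and 65.2 CPM in POG and 68.9 and 67.5 CPM in DEG. COL8A2, its partner chain, was lower in PC than in any other library, with -0.51 (SE 0.0448, FDR 1.15e-25) for serum, while POG and DEG were not called, at -0.07 (95% interval -0.16 to 0.01, FDR 0.268) and -0.00164 (95% interval -0.09 to 0.09, FDR 1.00). COL10A1, the hypertrophic cartilage chain of the same class, lay at 1.49 to 2.62 CPM with no call.

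COL15A1 stood at 3.67 and 3.34 CPM in NC, 3.40 and 3.65 CPM in PC, 2.74, 3.11 and 3.23 CPM in RES, 1.95, 2.31 and 1.96 CPM in POG and 1.91 and 1.30 CPM in DEG. COL15A1, a proteoglycan collagen of basement membrane zones, was lower in the 5 POG and DEG libraries than in the 7 others, on 51 to 168 reads per library. Its log2 fold change was -0.76 (SE 0.165, FDR 7.54e-05) for POG and -1.13 (SE 0.195, FDR 2.87e-07) for DEG, the largest fall of any member with a compound, and -0.21 for RES and 0.01 for PC, not called; an antisense long noncoding gene shares 137 exonic bases with it. The related COL18A1, from which endostatin is cut, stood at 214 ± 4.36 CPM in NC (SD, n = 2), 186 ± 8.64 CPM in PC (SD, n = 2) and 195 ± 3.08 CPM in RES (SD, n = 3), log2 fold changes of -0.20 for PC and -0.14 for RES, the latter lost without NC replicate 2 (FDR 0.181). It was not called with POG or DEG, and it shares 1563 exonic bases with SLC19A1 on the opposite strand, so its counts are uncertain. Of the transmembrane collagens, COL13A1 rose with serum from 36.3 ± 2.06 CPM in NC (SD, n = 2) to 43.6 ± 0.279 CPM in PC (SD, n = 2) (0.26). COL17A1, the hemidesmosome collagen, was under 1 CPM in every library and went from 0.432 ± 0.0638 CPM in NC (SD, n = 2) to 0.924 ± 0.0665 CPM in PC (SD, n = 2), 1.09 (SE 0.430, FDR 0.0164). This call was lost without PC replicate 1, NC replicate 1 or NC replicate 2, and with DESeq2 (FDR 0.0543). POG minus RES for COL17A1, -0.81, was called without POG replicate 3 only (FDR 0.0449). COL25A1 was at 0.155 to 0.528 CPM with no call, and it, COL10A1 and COL4A4 were the 3 tested members called in none of the 7 comparisons.

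POG and DEG each differed from RES in many collagen genes. Between POG and DEG the main test called no collagen gene, and few genes of any kind. RES, POG and DEG were given at the same dose and compared directly, in 3 pairs, with p adjusted over all genes within each pair. POG against RES called 19 members, 6 higher and 13 lower, beside 27.9% of all genes (13.7% higher, 14.1% lower). DEG against RES called 15, 5 higher and 10 lower, beside 21.2% (10.3% higher, 10.8% lower). These comparisons share the 3 RES libraries. Of the members over 100 CPM, 9 of 14 were called for POG and 8 for DEG, beside 47.3% and 38.0% of all genes over that level. COL4A2, COL5A3, COL6A1 and COL6A2 were higher than RES in both, and COL11A1, COL15A1, COL1A1, COL1A2, COL24A1, COL27A1, COL4A5, COL7A1, COL8A1 and COL9A2 were lower in both. The type I chains were lower than RES by 0.09 (SE 0.0194, FDR 0.00326) and 0.11 (SE 0.0205, FDR 0.000269) on the log2 scale in POG, and by 0.12 (SE 0.0217, FDR 0.000689) and 0.11 (SE 0.0230, FDR 0.00371) in DEG. The DEG values were not called without DEG replicate 2 for COL1A1 (FDR 0.0584) and without DEG replicate 1 for COL1A2 (FDR 0.119).

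Smaller differences between compounds depended on single libraries. COL4A2 exceeded RES by 0.07 (SE 0.0187, FDR 0.0269) in POG, lost without any 1 of the 6 libraries compared (FDR 0.0536 to 0.161) and with no filter on low counts (FDR 0.0968). In DEG it exceeded RES by 0.10 (SE 0.0209, FDR 0.00513), lost without DEG replicate 2. COL4A1 exceeded RES in DEG by 0.09 (SE 0.0252, FDR 0.0384), lost without RES replicate 1 or 2 (FDR 0.165 and 0.0935) and without DEG replicate 1 or 2. That call was also lost with plain library totals (FDR 0.0732) and with no filter on low counts (FDR 0.117). Without DEG replicate 2 the DEG against RES count fell from 15 to 10. COL7A1 and COL8A1 were lower than RES in both, COL7A1 by 0.21 (SE 0.0232, FDR 5.15e-12) in POG and 0.28 (SE 0.0262, FDR 2.25e-16) in DEG, and COL8A1 by 0.27 (SE 0.0287, FDR 2e-15) and 0.23 (SE 0.0324, FDR 1.2e-08). COL15A1 lay below RES by 0.54 (SE 0.149, FDR 0.00132) in POG and 0.91 (SE 0.182, FDR 5.57e-06) in DEG, and COL4A5 by 0.23 (SE 0.0346, FDR 6.42e-09) and 0.18 (SE 0.0392, FDR 0.000183). In POG, COL18A1 was also called above RES (0.14) and COL5A2 and COL8A2 below it (-0.13 and -0.15); the DEG values, not called by the main test, were 0.05, -0.07 and -0.08.

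Between DEG and POG the collagen genes differed little, as did genes in general. DEG against POG called 0 of 33 members with the exact test, beside 1.05% of all genes (0.55% higher, 0.497% lower) and 2.31% of those over 100 CPM. At an unadjusted p under 0.05 there were 5 members, the quasi-likelihood test and DESeq2 called 0, and dispersions from DEG and POG alone called 5, COL12A1, COL18A1, COL5A2, COL6A1 and COL7A1. The log2 difference of DEG minus POG was -0.03 (95% interval -0.07 to 0.02, FDR 0.827) for COL1A1, -0.03 (95% interval -0.07 to 0.02, FDR 0.865) for COL3A1, -0.06 (95% interval -0.10 to -0.02, FDR 0.467) for COL6A1 and -0.37 (95% interval -0.76 to 0.02, FDR 0.458) for COL15A1. For the abundant chains COL1A1, COL3A1 and COL6A1 these intervals reached no further than -0.10 and 0.02, while for the scarce COL15A1 they left room for a fall of DEG to -0.76 below POG.

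**Figure D5:**
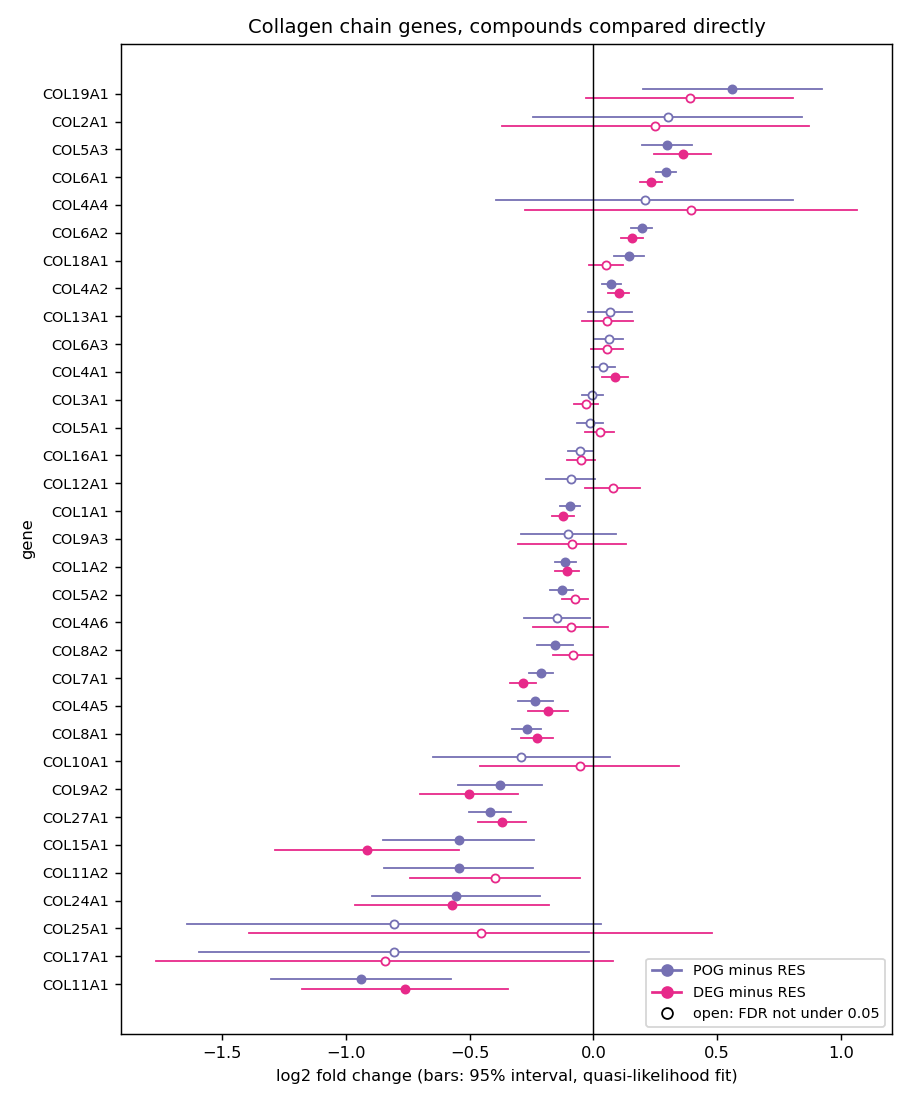
Log2 fold change of POG minus RES and DEG minus RES (horizontal axis) for the 33 tested collagen chain genes (rows); bars are 95% intervals of the quasi-likelihood fit, not adjusted for the number of genes, and open circles have an FDR of 0.05 or more. COL6A1 and COL5A3 lie to the right of 0 for both compounds, and COL27A1, COL8A1 and COL7A1 to the left for both.

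Genes that fold, export and crosslink collagen were called in both directions. Among all tested genes 21.4% were higher and 20.9% lower with serum, and 4.94% and 6.21% with RES. With POG the shares were 5.93% and 8.57%, and with DEG 3.52% and 6.11%. All-gene medians were -0.00586, 0.00112, 0.00233 and 0.00083 for serum, RES, POG and DEG. The same shares and medians apply to the lists in the next paragraphs. Of 22 tested folding and modification genes, 10 were higher and 3 lower with serum, 1 higher and 5 lower with RES, 6 higher and 2 lower with POG, and 6 higher and 2 lower with DEG; their median log2 fold changes were 0.13, -0.05, 0.05 and 0.04 in that order. P4HA1, a catalytic subunit of prolyl 4-hydroxylase, rose with POG by 0.30 (SE 0.0313, FDR 4.53e-16) and with DEG by 0.27 (SE 0.0342, FDR 3.36e-10), from 147 ± 0.902 CPM in NC (SD, n = 2) to 181 ± 1.84 CPM in POG (SD, n = 3) and 177 ± 1.17 CPM in DEG (SD, n = 2). P4HA2, another such subunit, rose with serum by 0.41 (SE 0.0333, FDR 1.16e-25), and PLOD2, a lysyl hydroxylase, rose with serum by 0.31 (SE 0.0311, FDR 3.59e-16) and fell with POG by 0.22 (SE 0.0284, FDR 2.04e-09). Of the 13 tested trimming and crosslinking genes, 8 were higher and 2 lower with serum, 1 and 3 with RES, and 1 and 5 with each of POG and DEG, with medians of 0.28, -0.03, -0.16 and -0.13 in the same order. LOXL2, a lysyl oxidase, rose with serum by 0.91 (SE 0.0304, FDR 1.21e-137) and ADAMTS2, which cuts the ends of procollagen, by 0.89 (SE 0.0417, FDR 2.26e-87). TGM2, a transglutaminase, had log2 fold changes of 1.13 for PC, 0.44 for RES, -0.47 for POG and -0.32 for DEG, all called.

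With the compounds, more partners and receptors of collagen were lower than higher, as were genes in general. Of 12 tested fibril partners, 6 were higher and 5 lower with serum, 1 higher and 5 lower with RES, and 1 higher and 6 lower with each of POG and DEG, with medians of 0.06, -0.11, -0.10 and -0.13. LUM (lumican), a small proteoglycan on fibrils, fell in all 4 comparisons, by 1.07 (SE 0.0892, FDR 1.92e-31) in PC, 0.65 (SE 0.0782, FDR 1.48e-13) in RES, 0.71 (SE 0.0784, FDR 1.55e-16) in POG and 0.74 (SE 0.0884, FDR 3.16e-14) in DEG. Of 10 tested receptor genes, 3 were higher and 7 lower with serum, 1 higher and 5 lower with RES, and 0 higher and 7 lower with each of POG and DEG, with medians of -0.24, -0.09, -0.12 and -0.14. ITGA10 and ITGA11, the alpha chains of collagen-binding integrins, had log2 fold changes of -1.78 and -0.90 with serum, -0.67 and -0.56 with RES, -0.83 and -0.43 with POG, -0.81 and -0.49 with DEG, all called. ITGA10 stood at 74.2 ± 0.375 CPM in NC (SD, n = 2) and 21.7 ± 2.84 CPM in PC (SD, n = 2).

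More collagen-degrading enzymes and regulators of collagen transcription were called with serum than with a compound, as were genes in general. Of 12 tested breakdown genes, 5 were higher and 3 lower with serum, 1 higher and 2 lower with RES, and 0 higher and 2 lower with each of POG and DEG, with medians of 0.03, 0.00393, -0.01 and 0.02. MMP1, the interstitial collagenase, fell in all 4, by 1.01 (SE 0.135, FDR 1.9e-12), 0.77 (SE 0.120, FDR 2.09e-08), 0.72 (SE 0.119, FDR 1.25e-07) and 0.97 (SE 0.138, FDR 2.78e-10) for serum, RES, POG and DEG. Of 24 tested genes of transcription and TGF-beta signaling, 12 were higher and 5 lower with serum, 2 and 2 with RES, 0 and 9 with POG, and 0 and 4 with DEG, with medians of 0.15, -0.01, -0.08 and -0.01. SMAD3, a TGF-beta signal transducer, rose with serum by 1.19 (SE 0.0369, FDR 6.65e-188). TGFB2, a TGF-beta ligand, fell with POG by 0.59 (SE 0.0647, FDR 1.8e-16) and with DEG by 0.26 (SE 0.0707, FDR 0.00553).

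The 11 members below the filter were close to absent. COL21A1 had 59 reads over the 12 libraries, COL20A1 43, COL28A1 37, COL4A3 27, COL14A1 19, COL26A1 10, COL23A1 6, COL22A1 5, COL6A6 2, COL9A1 1 and COL6A5 0. COL21A1 thus had a pooled level of 0.114 CPM (exact Poisson 95% interval 0.0867 to 0.147), and the 0 reads of COL6A5 allow up to 0.00712 CPM at the same level of confidence. These intervals cover counting error only.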

How the data were processed

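RNA of hFOB cells was sequenced as mRNA libraries with a strand-selecting kit. The authors aligned reads to hg38 with STAR, counted them per gene with featureCounts and deposited raw counts, with no versions or strand setting given in the sources used here. The count table held 12 libraries; the third DEG sample was not analysed here. Ensembl identifiers were matched to symbols, positions and transcript lengths in GENCODE release 44, and upstream sequence came from RefSeq (GRCh38.p14).

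From the counts, TMM factors, dispersions over all 12 libraries and exact tests were computed in edgeR 4.0.16 (R 4.3.3) on 17092 genes kept by its filter, with Benjamini-Hochberg adjustment over those genes. SEs and 95% intervals came from its quasi-likelihood fit. Library totals were 38464619 to 51416358 reads. Groups came from the labels; replicates are numbered by accession, and nothing says that they are separate cultures, so p-values measure the spread between libraries, which may be technical. Alternatives were the quasi-likelihood test, DESeq2 1.42.0, its size factors, plain totals, other filters, dispersions from the compared groups and leaving out each library. All tested members are named, with values per library for those called with a log2 change of at least 0.3 and a level of at least 1 CPM or among the major chains; related lists give up to 3 called genes a comparison. Members and lists were chosen with earlier results of these data known. On simulated data the exact test recovered 54% (DEG) to 59% (RES) of genes changed 1.25-fold against NC. For a 1.5-fold change it recovered 66% (DEG) to 72% (PC). Each percentage rests on 100 changed genes among 17092 simulated. Unchanged genes called numbered 14 for PC, 19 for RES, 14 for POG and 6 for DEG. For PC, RES and POG they were a larger share of the calls than the FDR threshold of 0.05 aims at. The changed genes came from all levels, not from collagen genes. They were a far smaller share of genes than was called in the real comparisons with NC, and the FDR cutoff depends on that share. Recovery in the real comparisons may therefore differ. All groups were simulated with the same dispersions, so the wider PC pair was not represented.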

Additional observations from a re-analysis of the deposited data

How the results depend on the processing

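Of 231 values (33 genes in 7 comparisons), 92 were called, 71 stayed called under every alternative run and 21 lost the call under at least 1, of which 20 did so when a library was left out and 7 under other settings. No called value reversed. The main PC tests used dispersions shared with the tighter groups. With dispersions taken from the compared groups only, 18 members were called for PC against NC in place of 20. In the same setting 18 were called for RES against NC in place of 15, and 15 for POG against NC in place of 14. For DEG, 15 were called against NC in place of 9 and 5 against POG in place of 0. Against RES, 22 were called for POG in place of 19 and 17 for DEG in place of 15. Leaving out 1 library at a time gave 19 to 21 called members for PC against NC, 10 to 15 for RES against NC, 11 to 14 for POG against NC, 9 in each case for DEG against NC, 16 to 19 for POG against RES, 10 to 14 for DEG against RES and 0 for DEG against POG; the count of 10 for RES against NC came without NC replicate 2, and an arm left with 1 library was assumed to vary like the others. With protein-coding reads as the denominator the collagen share was 1.94% and 1.99% in the PC libraries, and on average 2.37% in NC, 2.13% in RES, 2.21% in POG and 2.19% in DEG. Without mitochondrial reads it was 2.02% in PC, 2.42% in NC, 2.17% in RES, 2.25% in POG and 2.22% in DEG. With the union of exons as the gene length the mean ratios became 2.62 for COL1A1 to COL1A2, 1.27 for COL4A2 to COL4A1, 1.20 for COL6A1 to COL6A2, 0.169 for COL6A3 to COL6A2, 0.607 for COL3A1 to COL1A1, 0.528 for COL5A1 to COL5A2 and 4.34 for COL4A5 to COL4A6, because the lengths differ. Depth limits the members under about 1 CPM, where 7 to 51 reads stand behind a library's value. No paired analysis was possible because replicate numbers follow accession order and pair no samples.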
